A study of Rattus norvegicus with 14 samples.

Results

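Genes of microglia and of the complement system, 10 in all, were followed in the dentate gyrus of rats that had or had not been able to learn a place. They are the complement genes C1qa, C1qb and C1qc, and the microglial markers P2ry12, Csf1r, Ctss, Cx3cr1, Aif1, Cd74 and Tyrobp. Members were all probe sets whose only gene symbol in the platform annotation is one of these 10 symbols. This gave 12 probe sets of the 15866 on the array that are not controls, and 10 of the 10411 genes with a single-symbol probe set, 2 probe sets for P2ry12, 2 for Aif1 and 1 for each of the other 8 genes. Of these, 10 probe sets of 9 genes had a mean of at least 4 on the log2 scale and were tested. The probe set of Cx3cr1 and the weaker one of Aif1 were below that filter.

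The animals were 14 male Long-Evans rats aged 3 to 4 months, all trained earlier in a standard water maze. After 2 to 3 weeks each rat had 1 session of 8 trials in a new maze at a different site, with a visible platform. In the 7 learning rats the platform stayed in place and spatial cues were present, and in the 7 control rats it moved between trials without informative cues. All rats then had a 90 s probe swim without the platform 1 h after training, tissue was taken directly afterwards, and each rat's dentate gyrus RNA went on 1 array. The control rats therefore swam, saw a platform and were handled as well, so the comparison is between 2 kinds of training and has no untrained group.

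Microglia are the resident macrophages of the brain. They survey the tissue with motile processes and take up debris and, in mice, synapses during development. C1q is the recognition molecule of the classical complement pathway. It is assembled from the A, B and C chains that C1qa, C1qb and C1qc encode, and in the brain it is made mainly by microglia. In bulk tissue such as this, fewer microglia and less RNA per microglial cell cannot be told apart.

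No member passed the adjusted threshold in the comparison of the groups. In limma's moderated test 0 of 10 member probe sets had an adjusted p below 0.05, where the background over all 9387 tested probe sets was 0%. At an unadjusted p below 0.05 there was 1 member, C1qc, lower in learning rats, against 13.1% of all tested probe sets in either direction and 6.67% that were lower. An exact permutation test per probe set, adjusted over the same 9387, also called 0 members, again with C1qc alone below 0.05 unadjusted. The smallest p this test can give is 0.000583, and only where the groups do not overlap. After adjustment its 0 calls therefore add little about the members. The learning mean was below the control mean for 8 of the 10 member probe sets, against 48.3% of all. The median member difference was -0.04 log2 units, and that of all tested probe sets 0.0050. The groups overlapped for all 10, whereas 0.405% of all tested probe sets had groups that did not overlap. The adjusted p values of the members ran from 0.336 to 0.996 in limma.

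**Figure D1:**
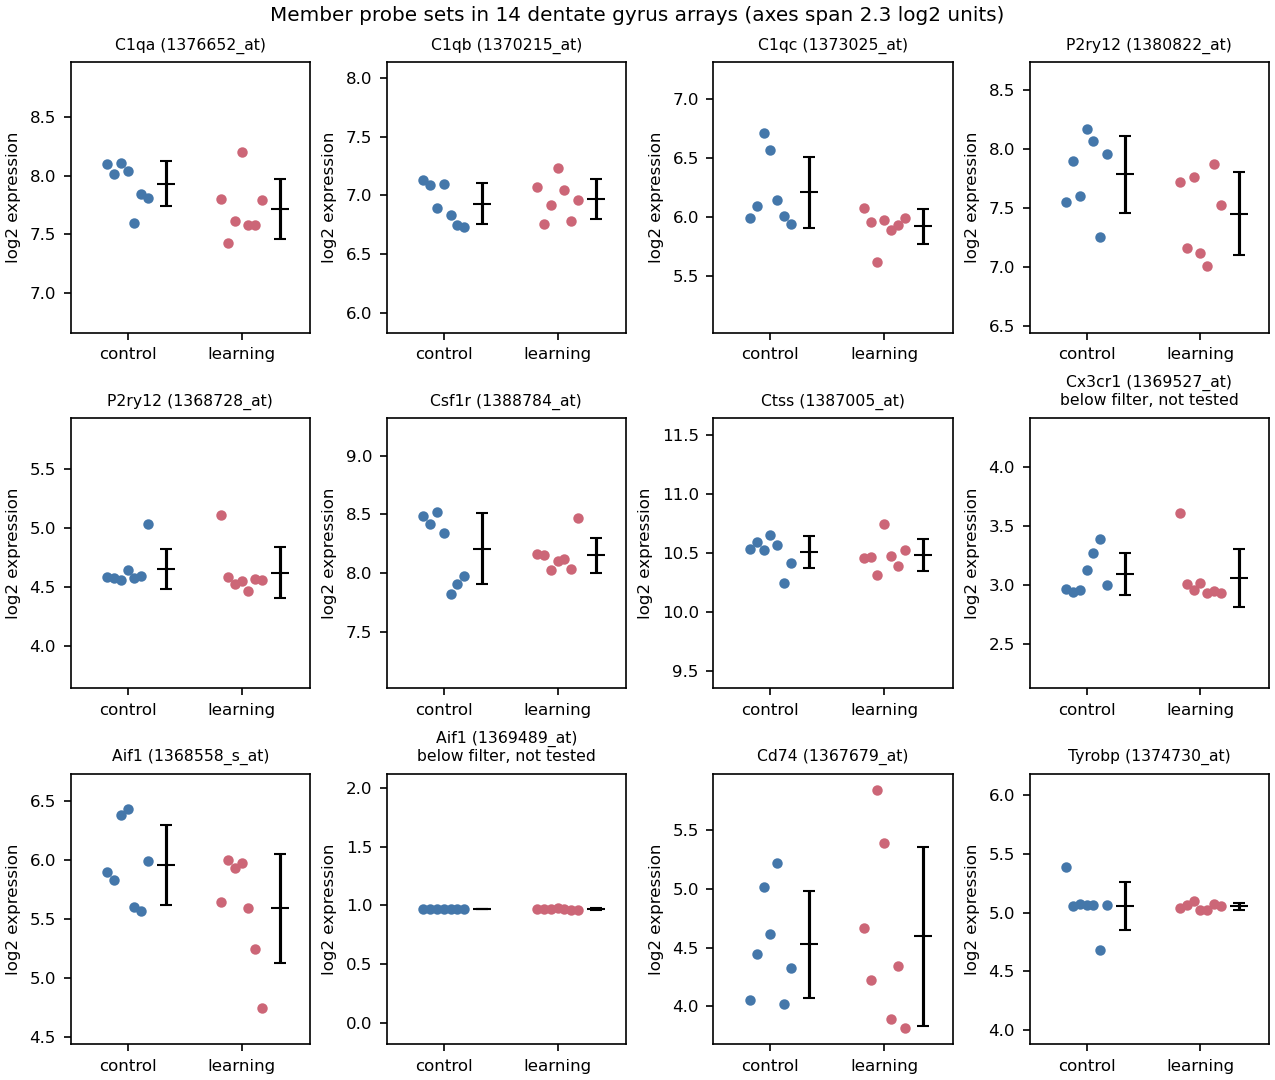
Log2 expression of the 12 member probe sets in each rat (points; blue control, red learning; 7 rats per group), with mean and SD beside the points. Every panel spans the same number of log2 units, so the width of the scatter can be compared: Cd74 and Aif1 (1368558_s_at) vary most, while Tyrobp, Cx3cr1 and the weaker probe sets of P2ry12 and Aif1 are nearly flat apart from a few arrays.

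Of the C1q subunits, C1qa (probe set 1376652_at) spanned 7.59 to 8.11 (median 8.01) among controls and 7.42 to 8.21 (median 7.62) after learning. Of the 7 learning rats, 6 lay below the control median, and learning replicate 4 was the highest of all 14. The mean was 7.93 ± 0.19 in control (n = 7) and 7.72 ± 0.25 after learning (n = 7, both SD). The difference was -0.22 ± 0.11 (SE), or 1.16-fold lower, with an adjusted p of 0.429 in limma. Without learning replicate 4 it was -0.30 (adjusted p = 0.226 in limma). The mean of 5 CA1 markers was 7.28 ± 0.32 in control and 7.60 ± 0.16 in learning rats (SD, n = 7 each). With it as a covariate the C1qa difference was -0.09 (adjusted p = 0.847 in limma). The same covariate gave -0.25 for C1qc and -0.42 for P2ry12 (1380822_at), with adjusted p values of 0.579 and 0.498 in limma. As the CA1 mean itself differed between the groups, its part and that of training cannot be told apart.

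C1qc (1373025_at) had the smallest p of the members. Controls spanned 5.94 to 6.71 (median 6.09) and learning rats 5.62 to 6.08 (median 5.96). All 7 learning rats lay below the control median, and control replicates 3 and 4, at 6.71 and 6.56, stood above the rest. Group means were 6.21 ± 0.31 for control and 5.92 ± 0.15 for learning (SD, n = 7 each). The difference of -0.29 ± 0.12 (SE), 1.22-fold lower, had in limma a p of 0.0277 that became an adjusted p of 0.336, and the exact permutation test gave p = 0.0216. Without control replicate 3 the difference was -0.20. With the 3' minus 5' difference of beta-actin as a covariate it was -0.35 (adjusted p = 0.324 in limma).

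C1qb (1370215_at) was at about the same level in both groups. It spanned 6.73 to 7.13 (median 6.89) among controls and 6.75 to 7.24 (median 6.96) after learning, so the ranges nearly coincided. The difference was 0.04 ± 0.09 (SE), with a 95% confidence interval from -0.15 to 0.23 and an adjusted p of 0.872 in limma.

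The 3 subunits share 1 protein complex, and their genes lie next to each other on rat chromosome 5 in the order C1qb, C1qc, C1qa, between Ephb2 and Epha8. Measured within each rat, C1qa minus C1qb was 1.001 ± 0.15 in control and 0.75 ± 0.14 in learning rats (SD, n = 7 each), and 4 learning rats lay below the lowest control rat. C1qb minus C1qc went from 0.72 ± 0.31 to 1.05 ± 0.20 (SD, n = 7 each), with overlapping ranges. C1qa minus C1qc was 1.72 ± 0.28 and 1.80 ± 0.25 (SD, n = 7 each). These within-rat values describe the members and were not tested. Each subunit was read by a single probe set, so an effect on the probe set and one on the transcript cannot be told apart.

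The upstream sequences of C1qa and C1qb are shown because these are the 2 subunits that varied most alike across rats, with group differences of -0.22 and 0.04. They are the 250 bases before the RefSeq transcript start in GRCr8, from the minus strand, with capitals marking GGAAGT or its reverse complement ACTTCC, the core bound by ETS factors such as PU.1, a factor that macrophages and microglia depend on.
C1qa, chr5:154419934-154420183: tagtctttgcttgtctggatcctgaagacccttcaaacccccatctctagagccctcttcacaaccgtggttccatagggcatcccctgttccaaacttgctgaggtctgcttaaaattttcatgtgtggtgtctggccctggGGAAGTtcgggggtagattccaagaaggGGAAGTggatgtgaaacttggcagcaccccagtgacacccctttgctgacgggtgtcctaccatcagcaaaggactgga
C1qb, chr5:154407828-154408077: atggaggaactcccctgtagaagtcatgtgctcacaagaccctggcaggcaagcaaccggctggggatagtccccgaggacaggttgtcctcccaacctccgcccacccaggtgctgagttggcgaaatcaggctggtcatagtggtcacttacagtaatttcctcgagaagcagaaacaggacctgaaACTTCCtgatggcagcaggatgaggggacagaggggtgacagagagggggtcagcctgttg
Promoters of 6 of the 10 members were matched in the RefSeq table. The windows of Ctss, Csf1r, Cx3cr1 and Cd74 overlap the annotated span of their own gene, unlike those of C1qa and C1qb. They are therefore not upstream sequence alone, and their matches are not on equal terms with those of C1qa and C1qb. C1qa held 2 matches, whose last bases lie 102 and 74 bases before the start, C1qb held 1 at 56 bases and Ctss 1 at 12 bases, while Csf1r, Cx3cr1 and Cd74 held 0. The core occurred in 19.2% of all 33469 promoters of that length. The longer PU.1 consensus GAGGAAGT, which contains the core, was searched on both strands too. It occurred in 2.04% of all promoters and, among the 6, in that of Ctss (aaagttcACTTCCtcgttgt, the core in capitals on the reverse strand). The motifs were chosen after the sequences had been seen, and a match is a description of letters, not a measured site.

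Among the receptors, P2ry12 encodes the ADP receptor that directs microglial processes towards injury. Its brighter probe set (1380822_at) spanned 7.25 to 8.17 (median 7.90) among controls and 7.01 to 7.88 (median 7.53) after learning. All 7 learning rats lay below the control median and 4 control rats lay above every learning rat, though control replicate 6 was low at 7.25. The mean was 7.79 ± 0.33 in control and 7.45 ± 0.35 in learning rats (SD, n = 7 each). The difference was -0.33 ± 0.17 (SE), 1.26-fold lower, with an adjusted p of 0.402 in limma. With the mean of 10 other microglial markers as a covariate, itself 6.94 ± 0.09 in control and 6.88 ± 0.03 in learning rats (SD, n = 7 each), the difference was -0.11 (adjusted p = 0.887 in limma). With the 3' minus 5' difference of beta-actin as a covariate it was -0.42 (adjusted p = 0.386 in limma). The weaker probe set (1368728_at) lay within 0.1 of its overall median in 11 of 14 arrays and differed by -0.03 ± 0.10 (SE). Control replicate 7 at 5.04 and learning replicate 1 at 5.11 stood above the rest.

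Csf1r encodes the receptor for the cytokines CSF1 and IL-34, on which microglia depend for survival. Csf1r (1388784_at) spanned 7.82 to 8.52 (median 8.34) among controls and 8.03 to 8.47 (median 8.12) after learning. The control rats fell into a higher set (replicates 1 to 4, 8.34 and above) and a lower one (replicates 5 to 7, 7.97 and below), and 6 of 7 learning rats lay between them. The same 4 control rats were also above the other 3 in C1qa, from 8.01 upwards against 7.85 at most, and in C1qb, from 6.89 upwards against 6.83 at most, a split noticed after the values were seen that the labels do not explain. The difference was -0.06 ± 0.12 (SE), with a 95% confidence interval from -0.31 to 0.19 and an adjusted p of 0.855 in limma. Leaving out control replicate 3 gave -0.0048, leaving out control replicate 5 gave -0.12, and the beta-actin covariate gave -0.15.

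Cx3cr1 encodes the receptor for fractalkine, a chemokine made by neurons. Its probe set (1369527_at) spanned 2.94 to 3.39 (median 2.999) among controls and 2.93 to 3.61 (median 2.96) after learning, below the filter, and lay within 0.1 of its median in 10 of 14 arrays. It was fitted only with no filter on low values, where it differed by -0.04 (adjusted p = 0.937 in limma). Tyrobp encodes DAP12, the adaptor through which TREM2 signals. Tyrobp (1374730_at) passed the filter at 5.05 in both groups, spanning 4.68 to 5.38 among controls and 5.02 to 5.10 after learning, yet 12 of 14 arrays lay within 0.1 of its median, the others being control replicate 1 at 5.38 and control replicate 6 at 4.68. Its difference was -0.0014 ± 0.08 (SE). Whether such uniform probe sets lay near background was not tested.

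Ctss encodes cathepsin S, which trims the invariant chain encoded by Cd74 so that MHC class II molecules can load peptides. Its probe set (1387005_at) spanned 10.25 to 10.66 (median 10.53) among controls and 10.32 to 10.75 (median 10.46) after learning, so the groups overlapped almost fully. It had the smallest standard error of the members, and differed by -0.02 ± 0.07 (SE), with a 95% confidence interval from -0.18 to 0.13. The adjusted p was 0.907 in limma.

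Cd74 varied more between rats than any other tested member. Its probe set (1367679_at) spanned 4.02 to 5.22 (median 4.45) among controls and 3.82 to 5.84 (median 4.35) after learning, a range of 2.02 log2 units over the 14 arrays. High and low rats occurred in both groups. The means were 4.53 ± 0.46 in control and 4.60 ± 0.76 in learning rats (SD, n = 7 each). The difference was 0.07 ± 0.30 (SE), with an adjusted p of 0.936 in limma. It was -0.14 without learning replicate 3 and 0.20 without learning replicate 7.

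Aif1 encodes IBA1, the actin-binding protein used to stain microglia. Its brighter probe set (1368558_s_at) spanned 5.57 to 6.43 (median 5.90) among controls and 4.74 to 5.997 (median 5.64) after learning. Learning replicates 6 and 7, at 5.25 and 4.74, lay below every control rat. The means were 5.96 ± 0.34 and 5.59 ± 0.46 (SD, n = 7 each). The difference was -0.37 ± 0.20 (SE), 1.29-fold lower, with an adjusted p of 0.444 in limma, and it was -0.23 without learning replicate 7. The other Aif1 probe set stayed between 0.964 and 0.978 in all 14 arrays, far below the filter.

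**Figure D2:**
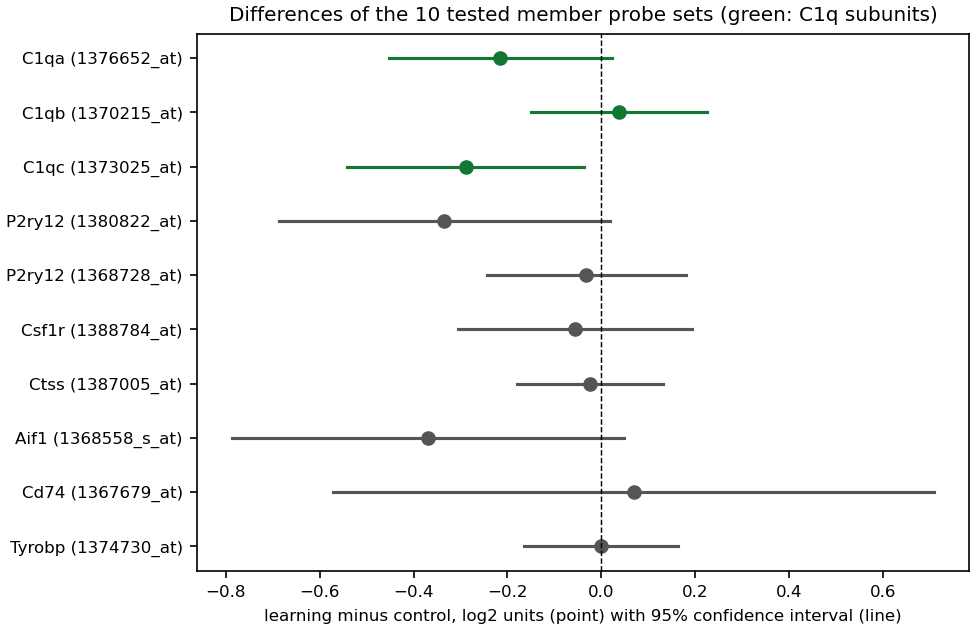
Difference between learning and control rats in log2 units (horizontal axis; points) with 95% confidence intervals (lines) for the 10 tested member probe sets, C1q subunits in green. The interval of C1qc, from -0.54 to -0.04, is the only one that leaves out 0 before adjustment, and Cd74 has the widest.

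The C1q subunits were then set beside the microglial markers as means over genes, with 1 probe set per gene. The mean of C1qa, C1qb and C1qc was 7.02 ± 0.18 in control and 6.87 ± 0.16 in learning rats (SD, n = 7 each), a difference of -0.16. Here every gene was read by its tested probe set of highest mean. The mean of the 6 measured markers was 7.01 ± 0.20 and 6.89 ± 0.18 (SD, n = 7 each), a difference of -0.12. These markers include Cd74, the only one of them that was higher in learning rats, at 0.07, and the one that varied most. A marker mean without Cd74 was not computed. The C1q mean minus the marker mean, taken in each rat, was 0.02 ± 0.15 in control and -0.02 ± 0.22 in learning rats (SD, n = 7 each). Its difference of -0.04 was smaller than the spread between rats in either group. As scores over members these values carry no test. Both means were highest in control replicates 3 and 4. Learning replicate 3 came next in the marker mean at 7.16, yet had the second lowest C1q mean at 6.72. Its Cd74 value, which is part of that marker mean, was the highest of all 14 rats at 5.84.

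**Figure D3:**
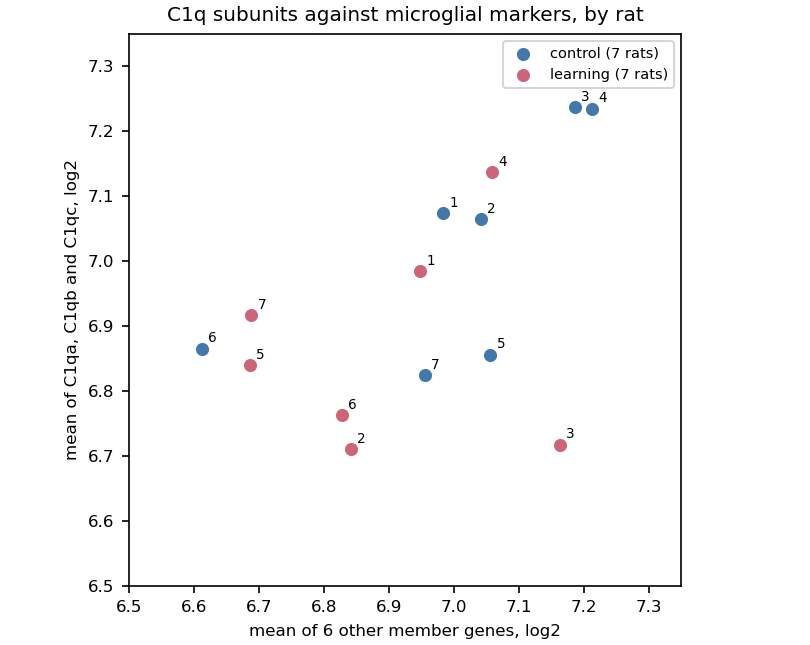
Mean of the 3 C1q subunits (vertical axis, log2) against the mean of the 6 other measured members (horizontal axis, log2) in each rat, numbered by replicate. Control replicates 3 and 4 lie at the upper right, and learning replicate 3 combines a marker mean of 7.16 with a C1q mean of 6.72. That marker mean includes the highest Cd74 value of any rat, 5.84.

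To see which members varied together, correlations were computed over the 14 rats after removing group means, for all 45 pairs of genes. With Benjamini-Hochberg adjustment over the 45 pairs, 0 passed by Pearson's r and 0 by Spearman's rho. At an unadjusted permutation p below 0.05 there were 5 and 3 pairs. The 5 include Cx3cr1, whose probe set was below the filter, with Tyrobp (r = -0.45, permutation p = 0.0404). C1qa and C1qb were the most alike. Their r was 0.77 (permutation p = 0.00191, adjusted p = 0.0859) and their rho 0.75 (permutation p = 0.00312, adjusted p = 0.140), with r = 0.74 after leaving out the 2 rats farthest from the C1qa median. C1qb and Ctss followed with r = 0.73 (permutation p = 0.00431, adjusted p = 0.0970) and rho = 0.69 (permutation p = 0.00957, adjusted p = 0.215), and r = 0.65 without the 2 farthest rats.

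Among the 36 pairs of tested members, 6 had an r of at least 0.5, a share of 16.7%, against 5.76% of all 22421556 pairs of the 6697 tested genes. Of these 6 pairs, 5 were among C1qa, C1qb, Ctss and Csf1r, and the remaining one was Aif1 with Cd74. Within control rats Csf1r had r = 0.95 with C1qa and 0.78 with C1qb, and within learning rats 0.14 and 0.08 (n = 7 each), a difference that was not tested. The r of C1qa with Ctss was 0.59 over all rats and 0.29 without learning replicate 4. C1qa was the gene 6th most like C1qb among 6696 other genes, and C1qb was 9th for C1qa. C1qc was less like the other subunits, with an r of 0.35 with C1qa and 0.22 with C1qb, and it came 714th and 1706th in their lists, while its r was 0.49 with Csf1r and 0.47 with Ctss. These differences in r were not tested. The genes most like the C1q mean outside the members were Tmem176b (r = 0.90), Mfsd12 (0.84), Kcnc1 (0.79), Slc3a2 (0.77) and Ano6 (0.75), as the highest of 6688 genes over 14 rats. Those most like the marker mean were Vim (0.86), Cav1 (0.86), Ptgds (0.85), Jcad (0.84) and Igfbp2 (0.82). Ptgds and Igfbp2 are also among the 8 measured markers of the meninges, the membranes around the brain.

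**Figure D4:**
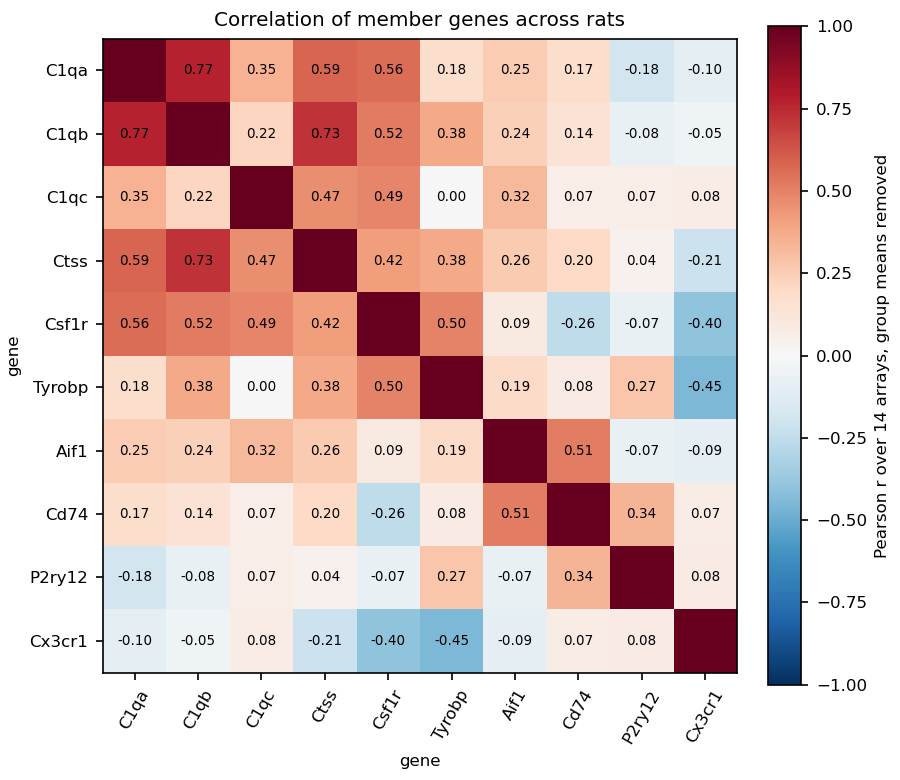
Pearson correlation over 14 rats, group means removed, for each pair of member genes (rows and columns; red positive, blue negative). The 6 pairs among C1qa, C1qb, Ctss and Csf1r run from 0.42 to 0.77, and some pairs outside them, such as Aif1 with Cd74 at 0.51 and C1qc with Csf1r at 0.49, exceed the lowest of these.

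Each of the 10 members was also set against 9 measures per array, a family of relations chosen after the data had been seen. These were the means of other microglial, border-associated macrophage, leukocyte, red cell, meningeal, choroid plexus, astrocyte and endothelial markers, and the 3' minus 5' difference of beta-actin as a sign of RNA quality. The border-associated macrophage measure was Maf alone, and the red cell and choroid plexus measures held 2 genes each. Of the 90 relations, 1 passed adjustment by Pearson's r and 2 by Spearman's rho. The one that passed by both was Cd74 with the mean of 8 meningeal markers, with r = 0.88 (permutation p = 0.00011, adjusted p = 0.0099) and rho = 0.85 (permutation p = 0.00027, adjusted p = 0.0243). It stayed at 0.85 without the 2 rats farthest from the median and between 0.86 and 0.93 with each rat left out in turn. The other was the brighter P2ry12 probe set with the mean of 10 other microglial markers, with rho = 0.80 (permutation p = 0.00089, adjusted p = 0.0401) and r = 0.70 (permutation p = 0.00246, adjusted p = 0.111), and r = 0.76 without the 2 farthest rats. With that same mean C1qa had r = 0.04, C1qb 0.25 and C1qc 0.39. The r of the remaining members lay between those of C1qa and C1qc, and all these adjusted p values were 0.633 or more (permutation).

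Meningeal markers differed widely between rats of both groups, from 5.09 to 7.93 in control and from 4.88 to 8.03 in learning rats. Within control rats Cd74 had r = 0.96 with them (exact permutation p = 0.000595, n = 7) and rho = 0.96 (exact permutation p = 0.00278). Within learning rats r was 0.87 (exact permutation p = 0.0149, n = 7) and rho 0.71 (exact permutation p = 0.0881). Ordered by meningeal level, the rats were spread without a clean break, the widest gap between neighbours being 0.77 and the next 0.60. The 6 rats above the widest gap, 3 of each group, had Cd74 values from 4.62 to 5.84, and the 8 below it, 4 of each group, from 3.82 to 4.45, as a description with no test. Within the upper 6 rats r was 0.36 (exact permutation p = 0.472) and within the lower 8 it was 0.46 (exact permutation p = 0.264), over narrower ranges and few rats, at a split made after the data were seen. With the meningeal mean as a covariate, the group difference of Cd74 was 0.23 ± 0.15 (SE; adjusted p = 0.565 in limma), and its standard error fell from 0.30 to 0.15. The other 9 members had an r between -0.02 and 0.49 with the same markers, with adjusted p values of 0.537 or more (permutation). That these members differ from Cd74 in this respect was not tested.

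**Figure D5:**
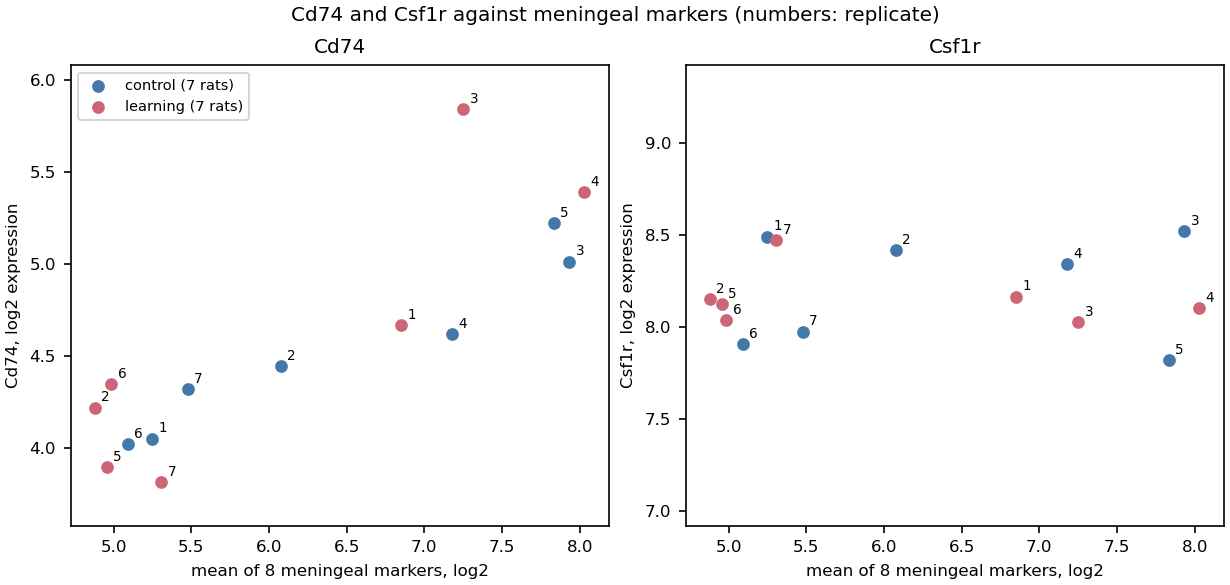
Cd74 (left) and Csf1r (right) in each rat, log2, against the mean of 8 meningeal markers, log2, with both panels spanning the same number of log2 units and points numbered by replicate. The 6 rats of highest meningeal level all exceed the other 8 in Cd74, from 4.62 upwards, while Csf1r shows no such order.

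Cd74 was also compared with its class II partners and with single meningeal genes, 17 relations in all. The 8 meningeal genes above the filter make up the mean that Cd74 had already been seen to follow in these rats. Their p values therefore describe the parts of that mean and add no separate support. Slc6a20a (r = 0.94) and Ptgds, a prostaglandin D synthase (r = 0.91), had the highest values, both with a permutation p of 1e-05, the smallest the permutations can give, and an adjusted p of 8.5e-05. Spearman's rho was 0.90 and 0.89 (adjusted p = 0.00068 and 0.00017, permutation), and r without the 2 farthest rats 0.94 and 0.91. Col1a1, Col1a2, Col3a1, Igf2 and Igfbp2 lay between 0.81 and 0.88. The other 3 meningeal genes were lower, with Lum at 0.62, Dcn at 0.59 and Slc22a8 at 0.50. Lum and Slc22a8, at means of 3.49 and 3.08, were below the filter. By Spearman's rho, Dcn (adjusted p = 0.0621, permutation) and Slc22a8 (adjusted p = 0.178, permutation) did not pass, and r for Dcn was 0.38 without the 2 farthest rats. Among the class II genes above the filter, 0 passed adjustment. RT1-Db1 had r = -0.43 (adjusted p = 0.211, permutation), RT1-DMa -0.0055 (adjusted p = 0.987, permutation) and RT1-DMb 0.37 (adjusted p = 0.269, permutation). RT1-Da, the class II alpha chain, had r = 0.82 (permutation p = 0.00187, adjusted p = 0.00397), but at a mean of 2.02, below the filter, where it varied by 0.05 log2 units over all 14 rats.

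The rest of the complement system was sparsely measured. Of 24 listed components and proteases, 14 were on the array and 5 passed the filter, with 3 higher, 2 lower and 0 called. Masp1, a protease of the lectin pathway, differed by 0.10 ± 0.08 (SE), the scavenger collectin Colec12 by -0.37 ± 0.31 (SE) and properdin (Cfp) by 0.01 ± 0.04 (SE). C3, the central component of the cascade, was at 2.91 in control and 2.89 in learning rats, below the filter, so it was not tested. Of 24 inhibitors and receptors, 8 were measured, with 3 higher, 5 lower and 0 called. Clusterin (Clu) differed by -0.08 ± 0.06 (SE), calreticulin (Calr) by -0.01 ± 0.08 (SE), and Lrp1, an endocytic receptor, by 0.14 ± 0.06 (SE; adjusted p = 0.349 in limma). Of 17 genes of the C1q-like family 2 were measured, C1qtnf4 at -0.15 ± 0.10 (SE) and C1qtnf5 at -0.08 ± 0.10 (SE).

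Other microglial genes gave differences of both signs. Of 38 listed markers, 23 were on the array and 10 measured, with 4 higher and 6 lower, a median of -0.03 and 0 called, against a median of 0.0018 over all 6697 tested genes. Lgmn, the lysosomal protease legumain, differed by -0.24 ± 0.12 (SE), Coro1a, an actin regulator of leukocytes, by -0.13 ± 0.07 (SE), and Gas6, a ligand that bridges dying cells to phagocytes, by -0.31 ± 0.13 (SE; adjusted p = 0.343 in limma). Tmem119, a marker that sets microglia apart from other macrophages, was measured at 6.36 in control rats and differed by 0.05, whereas Cd68 and Itgam were below the filter. Of 18 ligands and partners of the member receptors, 5 were measured, with 2 higher and 3 lower. Cx3cl1, the fractalkine gene, differed by 0.05 ± 0.08 (SE), Mif by -0.0014 ± 0.12 (SE) and Sirpa by -0.0036 ± 0.08 (SE), with 0.01 on its other probe set.

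Genes of the lysosomal and cathepsin list were mostly lower in learning rats without passing the test. This list also holds the inhibitor genes Cst3, Cst6 and Cstb, which were all lower, at -0.15, -0.07 and -0.50. The counts are therefore not those of lysosomal genes alone. Of 21 measured, 15 were lower and 6 higher, 71.4% lower against 49.4% of all tested genes, with a median of -0.09 and 0 called. Cst3, the secreted inhibitor cystatin C, differed by -0.15 ± 0.07 (SE), while Psap, the saposin precursor, and Ctsb, cathepsin B, differed by 0.10 ± 0.06 and 0.05 ± 0.05 (SE). The widest differences of the list, chosen after the values were seen, were those of the cathepsin inhibitor Cstb at -0.50 ± 0.14 (SE; adjusted p = 0.210 in limma) and of the lysosomal membrane protein gene Lamp1 at -0.39 ± 0.12 (SE; adjusted p = 0.236 in limma).

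Antigen presentation genes were split 3 and 3 over 6 measured, with B2m at -0.07 ± 0.09 (SE) and 0.11 on its other probe set, and the proteasome activator genes Psme1 at -0.09 ± 0.09 and Psme2 at 0.04 ± 0.09 (SE). Of 35 inflammatory genes, 32 were on the array and 7 measured, with 4 higher, 3 lower and 0 called. Lpl differed by 0.36 ± 0.15 (SE; adjusted p = 0.338 in limma), Ptgs2 by 0.09 ± 0.17 (SE) and Tgfbr1 by -0.22 ± 0.14 (SE). The cytokine genes Il1b, Il6 and Tnf were below the filter.

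Other cells the dissection could hold were followed with the same kind of list. Of the border-associated macrophage list, Maf alone was measured, at -0.02, so these cells were barely covered. The 3 measured leukocyte markers were all higher in learning rats, with a median of 0.15, and the 2 red cell genes had a median of -0.01. Astrocyte markers were lower for 7 of 10 with a median of -0.04, oligodendrocyte markers for 2 of 7 with a median of 0.03, and endothelial markers for 2 of 6 with a median of 0.0062. Meningeal markers were lower for 7 of 8 with a median of -0.36, granule cell markers were higher for 3 of 4 with a median of 0.15, and CA1 markers for 4 of 5 with a median of 0.31. The 2 measured choroid plexus markers differed unequally, Ttr by -1.78 ± 0.36 (SE; adjusted p = 0.153 in limma) and Enpp2 by -0.04 ± 0.08 (SE), so their median of -0.91 is set by Ttr. No gene of these lists passed the adjusted threshold in limma. Of these lists only the meningeal and CA1 markers were used as covariates, and the part of the others in the members' differences was not tested. Array medians lay between 5.09 and 5.12, and array pairs correlated at 0.995 to 0.998.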

How the data were processed

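Dentate gyrus RNA of 14 rats, 7 per group, was hybridised to Affymetrix RAE230A arrays, 1 per rat. Titles gave each array's group and number and call the arrays biological replicates. The deposited values are log2 expression per probe set, made by the authors with GCRMA, per the submitters' processing notes; no source used here gives its version or settings. GCRMA compresses differences near background. The number of arrays limits the precision.

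Symbols came from the platform annotation: of 15866 probe sets that are not controls, 12783 have 1 symbol, 312 several and 2771 none listed. The group difference, learning minus control, was estimated by limma 3.58.1 in R 4.3.3 (lmFit and eBayes) on the 9387 probe sets whose mean reached 4, adjusted by Benjamini-Hochberg over all of them at a threshold of 0.05. The fit was tested on simulated data with 200 changed probe sets per run. It recovered 17.4% of changes of 0.25 log2 units, 82.7% of 0.5 and 98.4% of 1. The simulated noise was independent between probe sets, and shares found with 200 changed ones need not hold here. In the data 0 probe sets passed, and Ttr at -1.78 had an adjusted p of 0.153 in limma. A true change of 0.25 would therefore mostly be missed, and larger ones could be missed too. A gene was represented by its tested probe set of highest mean. In the correlations Cx3cr1, which has no tested probe set, was represented by its probe set below the filter. Exact permutation tests used all 3432 assignments of arrays to groups. Correlations used 100000 two-sided permutations within groups, and exact ones within sets of under 10 rats. Promoter sequences are RefSeq's (GRCr8); no source used here names a build for the probe sets. Python 3.11.15 and matplotlib 3.10.9 were used.

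The members and all 20 gene lists were chosen with earlier results of these data known. Named genes were all members, 3 genes of highest mean per related list, and the 5 genes most like each member mean; Tmem119, C3, Cd68, Itgam, RT1-Da, Cstb, Lamp1 and the single meningeal, class II and cytokine genes were added after their values were seen. Alternatives were other filters, a floor at 3, array weights, quantile and median scaling, a robust prior with trend, a replicate block, 4 covariates, averaging the probe sets of each gene, and leaving out arrays singly.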

Additional observations from a re-analysis of the deposited data

Results flagged for a closer look

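In 24 groups of 7 rats (12 member probe sets in 2 groups), 5 single values lay farther from their neighbours than Dixon's 95% criterion allows; chance flags about 1 in 20 groups. C1qc was low in learning replicate 3 at 5.62, with the next rat at 5.89. Csf1r was high in learning replicate 7 at 8.47, with the next at 8.17. The weaker P2ry12 probe set was high in control replicate 7 at 5.04, with the next at 4.65, and in learning replicate 1 at 5.11, with the next at 4.58. Cx3cr1, below the filter, was high in learning replicate 1 at 3.61, with the next at 3.01. The P2ry12 and Cx3cr1 values came from probe sets that lay within 0.1 of their medians in 11 and 10 of 14 arrays. Whether these single high values reflect expression was not tested.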

How the results depend on the processing

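Over 12 other fits and 14 fits with 1 array left out, 0 member probe sets were called in each, and 0 by the exact permutation test. That exact test is limited by its smallest possible p of 0.000583. Of all probe sets tested, 0 were called under every other setting, and 0 to 1 with an array left out; the 1 appeared without control replicate 6, learning replicate 1 or learning replicate 4. The lowest adjusted p of any member in any fit was 0.226. Whether same-numbered arrays are pairs could not be settled from the values. Their correlations ran from -0.278 to 0.264, above 0.1 for 4 of 7 pairs, and 4 of 7 control arrays were closest to their own number. With the replicate block 0 member probe sets and 0 of all were called by limma. Unadjusted limma p went from 0.0277 to 0.0622 for C1qc, from 0.0800 to 0.0311 for Aif1 and from 0.0728 to 0.0470 for C1qa. C1qa, C1qc, Csf1r, Aif1 and the brighter P2ry12 probe set kept their sign throughout, with Csf1r between -0.15 and -0.0048, C1qa ending at -0.09 with the CA1 marker covariate and P2ry12 at -0.11 with the covariate of other microglial markers. In the other direction, the brighter P2ry12 probe set was at -0.42 with the CA1 marker covariate and C1qc at -0.35 with the beta-actin covariate. Signs turned for members with differences near 0. Tyrobp was at 0.0027 with quantile normalization, 0.0046 with median centring, 0.0094 with array weights, 0.0012 with the meningeal covariate and 0.0079 with the covariate of other microglial markers, which also gave 0.025 for Ctss and 0.0067 for the weaker P2ry12 probe set. Cd74 was at -0.044 with array weights and -0.032 with the beta-actin covariate, which gave 0.012 for the weaker P2ry12 probe set. With 1 array left out the ranges were -0.0073 to 0.073 for C1qb, -0.14 to 0.20 for Cd74, -0.069 to 0.0039 for Ctss, -0.11 to 0.033 for the weaker P2ry12 probe set and -0.064 to 0.054 for Tyrobp. The cause of these turns was not tested. The C1q mean difference lay between -0.20 and -0.12, the marker mean between -0.19 and -0.08, and the C1q mean minus the marker mean between -0.08 and 0.03, and the replicate block leaves these balanced means as they are. The 0 member pairs called stayed at 0 in all 19 alternatives. The relation of Cd74 to the meningeal markers held with each rat left out, and had an r of 0.456 within the 8 rats below the widest gap and 0.362 within the 6 above it, where fewer rats and a narrower range remain. A filter at a mean of 5 leaves out Cd74 and the weaker P2ry12 probe set, so it gives them no value.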
